A study of Salmo salar with 57 samples.

Results

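The comparison described here asks what changed in the distal intestine of Atlantic salmon when the yeast Candida utilis was added to a diet that already held soybean meal. Fish of the CU group (soybean meal plus Candida utilis, 10 fish) were compared with fish of the SBM group (soybean meal without yeast, 7 fish), which together make 17 of the 57 fish of the series. The 10 fish of the FM group, fed fish meal with neither soybean meal nor yeast, show where the level of a gene lies without soybean. The CU and SBM fish were taken by the group letter of their titles and not by expression. The letter of FM was matched through histology scores. The study had selected the samples for the arrays on their RNA quality. All were post-smolt salmon held in seawater and fed for 4 weeks, with 200 g soybean meal per kg in the SBM and CU diets and 200 g yeast per kg in the CU diet. The yeast took the place of fish meal, so the CU diet also held less fish meal than the SBM diet. It held more fish oil and less crude protein as well, and these differences cannot be told apart from the yeast. Each diet went to triplicate tanks, which the labels do not name, so tank could not be fitted and fish were treated as independent. The p-values measure the spread between fish and not between tanks, so they may be too small. The study left 1 tank of SBM fish out because of its histology, an outcome also described here, which is why this group has 7 fish. The paper describes the fish of that tank as alike but unlike those of the other SBM tanks. What its removal did to the differences from SBM was not tested.

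Soybean meal fed to salmon is known to inflame the distal intestine, where the mucosal folds shorten, the lamina propria widens with infiltrating leucocytes and the enterocytes lose their absorptive vacuoles. The distal enterocyte normally takes up intact protein and peptides at its brush border and breaks them down in large lysosomal vacuoles, so peptidases, transporters and lysosomal hydrolases are abundant there. Candida utilis is a feed yeast rich in protein and nucleic acids, with a cell wall of mannoproteins and beta-glucan.

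Gene expression was measured on one-colour Agilent arrays with 1 array per fish, and values are log2 intensities after quantile normalization. A probe was called when limma's adjusted p (Benjamini-Hochberg over 12065 probes) was at most 0.05 and its log2 fold change was at least 0.4 in size. A gene symbol was held for 2329 of these probes. The symbols come from lists of probes that the study found changed against FM in these same fish, so they favour genes that moved, and the gene counts are not independent of the result. The labels give letters for the diets. The letter of SBM was set by its 7 fish and that of CU by the rule of the comparison, while FM and the other 3 diets were matched through their histology scores and not through expression. All CU arrays lay in a single column of the slides and all SBM arrays in another, so position on the slide and diet cannot be told apart. The 7 slides with SBM arrays also held CU arrays, while CU fish 8 and 9 lay on slides without SBM. Both diets were on both scan days. All 145 probes of the genes followed that were called between CU and SBM had the same direction on each scan day. Since they were called on these same fish, that outcome was largely set by the choice and is no independent check. Only some of the 145 probes are among the 105 gene results followed through the alternatives below. Between 1576 and 3320 spots per array were too dim or uneven to use in these 3 diets. The tissue held the marker FABPI, the fatty acid carrier of enterocytes, at log2 intensities of 13.33 and above in all fish of the 3 diets. Lists of pancreas and blood markers had 0 probes with a symbol and could not be checked. The samples are whole tissue, so fewer cells of a type and less RNA per cell cannot be told apart.

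Between CU and SBM 878 probes were called, 302 higher in CU (2.50% of those tested) and 576 lower (4.77%). The share called in either direction was 7.28%, and an unadjusted p under 0.05 was reached by 3030 probes. The calls hold 157 genes with a symbol that were higher in CU and 316 that were lower. Between SBM and FM 3001 probes were called (24.9%), 1921 above FM (15.9%) and 1080 below (8.95%). Between CU and FM there were 472 (3.91%), 198 above (1.64%) and 274 below (2.27%). The 472 became 244 without CU fish 1. Of the 2329 probes with a symbol, 1011 were above FM in SBM and 608 below, and 128 were above FM in CU and 171 below. Between CU and SBM 22.2% of them were called, 7.56% higher in CU and 14.6% lower. The counts of the gene and marker lists below stand beside these shares, not those of all probes. The median log2 fold change of all probes between CU and SBM was -0.10, and the split of the calls moved with the scaling. Of the calls between CU and SBM 34.4% lay above SBM, against 45.7% when arrays were scaled to their 75th percentile, 52.2% when dim spots were kept and 63.3% when each diet was centred on its median probe. The sizes of the changes depended on the background correction used. With normexp correction 43 of the 105 gene results followed moved by over 1.5 times on the log2 scale and 27 lost their call. This correction included an offset of 50 added to every spot. Such an offset by itself makes the log2 fold changes of dim probes smaller. How much of the shifts came from the offset was not tested.

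The 3001 probes that differed between SBM and FM were sorted by what the CU fish showed. These comparisons share fish, since the SBM fish stand in both SBM against FM and CU against SBM, and a chance deviation of the SBM fish moves both in opposite directions. In 663 probes (22.1%) CU was called back toward FM and was not called against FM, 442 of them raised and 221 lowered by SBM. The 442 had a median log2 fold change over FM of 0.79 in SBM and 0.16 in CU, and the 221 had -0.94 and -0.27. A missing call against FM does not show that CU had reached FM. In another 130 (4.33%) CU was called back but was still called against FM, 62 raised and 68 lowered. In 295 (9.83%) CU was called against FM on the same side as SBM and was not called against SBM, 128 raised and 167 lowered. The remaining 1913 (63.7%) were called neither between CU and SBM nor between CU and FM, so these data do not decide whether the yeast diet changed them. The medians of the undecided probes lay between: those raised in SBM had a median log2 fold change over FM of 0.55 in SBM and 0.25 in CU, and those lowered had -0.56 and -0.31. Of the 878 calls between CU and SBM, 793 were among the probes called between SBM and FM. All 793 went in the direction opposite to the soybean change.

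**Figure D1:**
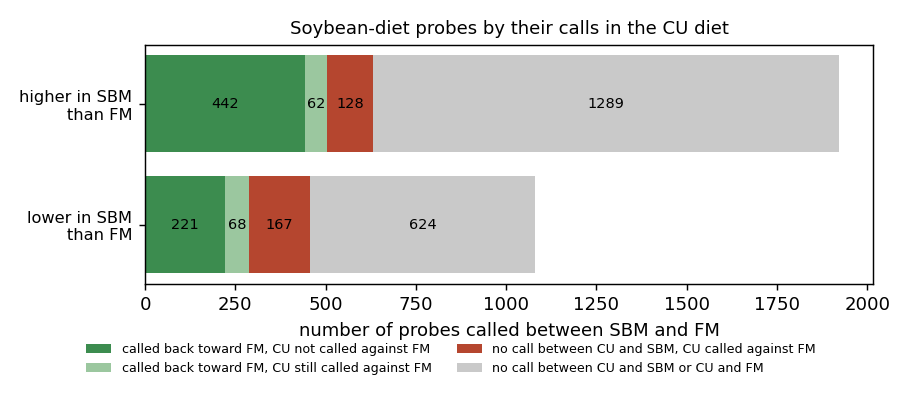
Number of probes called between SBM and FM (bars, x axis in probes), split by the calls of the CU fish, for probes above FM (upper bar) and below FM (lower bar). The largest section of each bar holds probes with no call for CU against either diet, 1289 of 1921 above FM and 624 of 1080 below.

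The histology of the same fish is given as a description. The letter of FM had been matched through these scores, so the low scores of FM were set by that choice. One tank of SBM fish had been left out on histology, so the high scores of SBM were set in part too. The sum of 4 scores (lamina propria, epithelium, atrophy and oedema, each between 0 and 2) was 7.71 ± 0.756 (SD, n = 7) in SBM, from 6 to 8, and 0 in all 10 FM fish. In CU it was 1.75 ± 2.18 (SD, n = 10), with 4 fish at 0 and the highest, fish 4, at 6. CU fish 1 and 2 each had a sum of 4. The sum of 6 equalled that of SBM fish 5. The mean over the 1921 probes that were above FM in SBM, taken relative to the FM mean, also differed widely among the CU fish. It was 0.45 to 0.88 in SBM and 0.03 to 0.63 in CU. CU fish 1 (0.63), 8 (0.57) and 4 (0.52) fell inside the SBM range and the other 7 below it. For the probes below FM in SBM the mean was -0.94 to -0.60 in SBM and -0.64 to -0.01 in CU, where only CU fish 1 reached the SBM range. The probes were chosen on the FM and SBM fish, so only the order of the CU fish adds to the counts above.

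Among the 12 named genes that rose most in CU, S26A6, ACE and S6A19 belong to the lists of brush border proteins and tryptophan handling. The anion exchanger S26A6, which moves chloride, bicarbonate and oxalate across the apical membrane, had log2 intensities of 4.81 to 6.42 (median 6.02) in SBM, 7.19 to 8.45 (median 7.70) in CU and 7.39 to 9.0 (median 8.57) in FM. Every CU fish lay above every SBM fish. Of the 145 called probes of the genes followed, 14 separated the diets fully, and so did 4 of the 24 largest changes with a symbol. The share over all probes tested is not given here. For S26A6 the difference was 3.74-fold (log2 fold change 1.90, SE 0.25, adjusted p = 7.97e-06), and CU was -0.64 against FM (adjusted p = 0.0848). With normexp correction the log2 fold change was 0.85, still called. The peptidase ACE, which trims peptides at the brush border, stood at 12.25 to 13.71 (median 12.65) in SBM, 13.83 to 15.33 (median 14.38) in CU and 14.79 to 15.46 (median 15.07) in FM. The CU and SBM fish did not overlap, and 3 of the 10 CU fish reached the FM range. ACE rose 3.33-fold (SE 0.29 on the log2 scale, adjusted p = 0.000102), and its other probe rose 3.27-fold. The brush border metalloprotease MEP1B (meprin A, subunit beta) rose by 1.25 on the log2 scale (SE 0.22, adjusted p = 0.000188) and was still 0.63 below FM (adjusted p = 0.0468). With normexp correction its rise was 0.30, under the limit of the call. The neutral amino acid transporter S6A19 rose 2.62-fold (adjusted p = 0.00289), with 10.51 to 12.72 (median 11.13) in SBM and 11.98 to 13.84 (median 13.06) in CU. Another probe of S6A19 did not show this, with a log2 fold change of 0.02 (adjusted p = 0.979).

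The list of lipid handling genes had 5 of 26 probes higher in CU and 3 lower, with a median log2 fold change of -0.03, and 2 of its genes, CD36 and APOA4, were among the 12 largest rises. The fatty acid translocase CD36 had values of 4.73 to 8.73 (median 5.99) in SBM, 6.71 to 10.29 (median 8.16) in CU and 8.01 to 10.55 (median 9.32) in FM. The groups overlapped, with 4 of 10 CU fish above the highest SBM fish. CD36 was 5.01-fold higher in CU (log2 fold change 2.32, SE 0.61, adjusted p = 0.00973), and SBM was -3.19 against FM. With normexp correction the log2 fold change was 1.18 and the call was lost (adjusted p = 0.057). Apolipoprotein APOA4, a protein of the lipoprotein particles that enterocytes secrete, had 16.19 to 17.37 (median 16.71) in FM, 12.67 to 16.77 (median 14.12) in SBM and 14.45 to 17.57 (median 16.38) in CU. The rise was 3.68-fold (adjusted p = 0.0107), while another APOA4 probe had a log2 fold change of 0.84 (adjusted p = 0.114). The carrier FABPI rose 2.19-fold (adjusted p = 0.0159) to within 0.18 of FM on the log2 scale. The sterol exporter ABCG5 rose by 0.70 (adjusted p = 0.00472). The lipid droplet protein PLIN2 went the other way, with 5.53 to 6.88 (median 6.37) in SBM, 3.77 to 5.83 (median 5.10) in CU and 3.65 to 6.29 (median 4.97) in FM. It fell 2.34-fold (adjusted p = 0.000981), and by 0.35 on the log2 scale with normexp correction, under the limit of the call.

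The other large rises had various roles. FCGBP, a mucus protein secreted by goblet cells in mammals, stood at 8.07 to 11.08 (median 8.86) in SBM, 10.84 to 12.97 (median 11.42) in CU and 11.36 to 13.32 (median 12.40) in FM. Of the 10 CU fish 7 were above the highest SBM fish, and FCGBP was 4.74-fold higher in CU (adjusted p = 0.00251). HMR1, an antigen-presenting molecule related to MHC class I, rose 2.79-fold (adjusted p = 0.000644). Heme oxygenase HMOX, which breaks down heme, had 8.89 to 9.66 (median 9.38) in SBM and 10.06 to 11.80 (median 10.58) in CU with no overlap between the diets. It rose 2.55-fold (adjusted p = 0.00251). The lysosomal protease CATL (cathepsin L) rose 3.57-fold (adjusted p = 0.0184), with a value filled in for 1 SBM fish where the spot was too dim or uneven. With normexp correction CATL had 0.53 on the log2 scale and no call (adjusted p = 0.0981). F264, an enzyme that sets the level of a glycolytic regulator, rose 2.61-fold (adjusted p = 0.00875), or with an adjusted p of 0.0549 when only CU and SBM were in the fit. One keratin probe, K1C13, rose 2.78-fold (adjusted p = 0.000324) and stayed below FM (log2 fold change -0.88, adjusted p = 0.0251). The other K1C13 probes went against it, with values above FM in both diets and log2 fold changes of -0.47 and -0.44 between CU and SBM that were not called. The zinc finger protein PLAL2 was 2.64-fold higher (adjusted p = 0.0257). This call was lost without CU fish 3, 7 or 10 or SBM fish 1, 4 or 7 (adjusted p of 0.0529 to 0.0662), or when only CU and SBM were in the fit (adjusted p = 0.0775). With normexp correction PLAL2 had 0.80 and K1C13 0.98 on the log2 scale, both called.

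**Figure D2:**
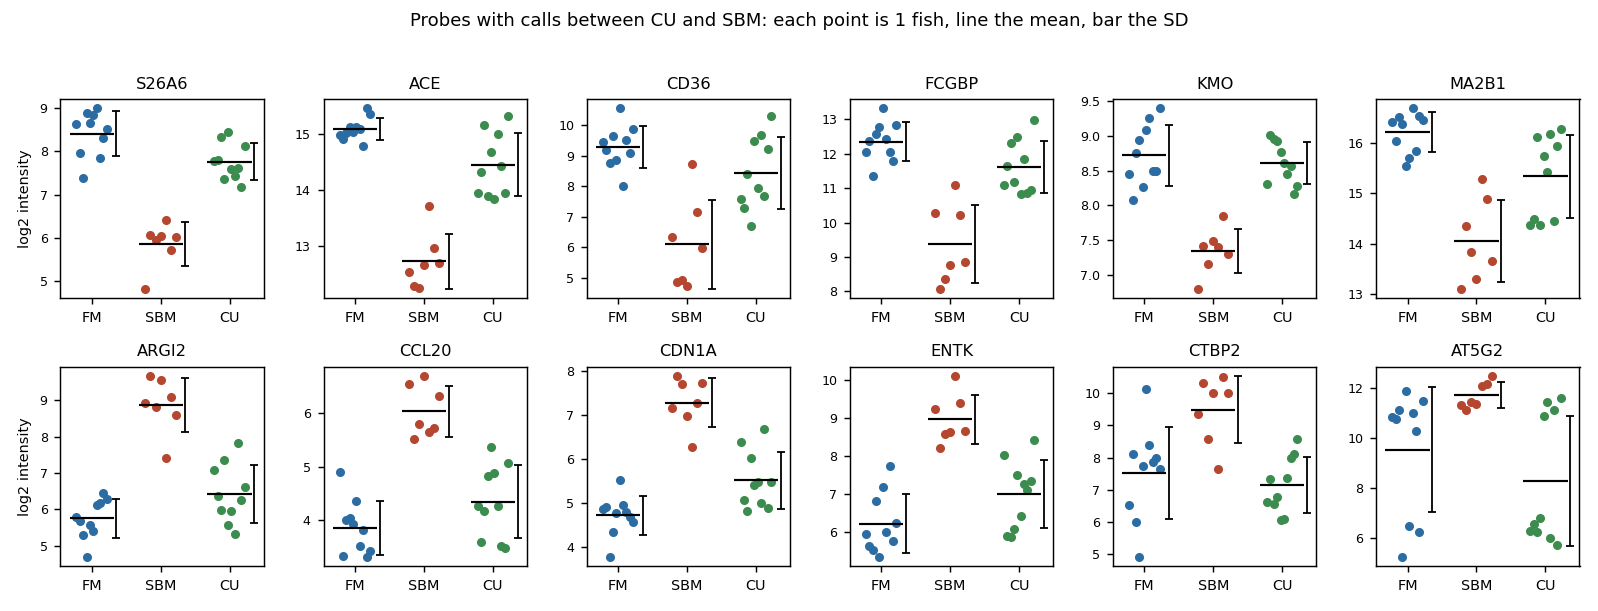
Log2 intensity (y axis) of 12 probes called between CU and SBM in each fish of FM, SBM and CU, with the mean (line) and SD (bar). In S26A6, ACE, KMO and CCL20 no CU fish overlaps an SBM fish, while AT5G2 falls into a low and a high cluster. Of the 145 called probes of the genes followed, 14 separated fully.

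Of the 12 largest named falls 6 are described first, and the other 6 (AT5G2 and 5 probes that moved together) further on. ARGI2, which splits arginine into ornithine and urea, had 7.42 to 9.66 (median 8.91) in SBM, 5.32 to 7.82 (median 6.30) in CU and 4.69 to 6.45 (median 5.74) in FM. Of the 10 CU fish 9 lay below every SBM fish and 6 lay within the FM range. ARGI2 was 5.41-fold lower in CU (log2 fold change -2.44, SE 0.35, adjusted p = 1.23e-05), after a log2 fold change of 3.11 between SBM and FM. Enteropeptidase ENTK, which activates trypsinogen and in mammals is made in the upper intestine, had 8.20 to 10.09 (median 8.65) in SBM, 5.88 to 8.41 (median 7.18) in CU and 5.35 to 7.72 (median 5.98) in FM. It fell 3.93-fold (adjusted p = 0.00051) and was the one brush border probe that was lower in CU. The transcription factor FOXA1 fell 3.84-fold (adjusted p = 0.00543), with 5.85 to 7.83 (median 7.19) in SBM and 3.37 to 7.43 (median 4.69) in CU. CU fish 1, 4 and 8 had FOXA1 at 7.43, 6.60 and 6.54, inside the SBM range, and the other 7 lay below it. CDN1A, the inhibitor p21 of the cell cycle, fell 3.39-fold (adjusted p = 0.000118), with 6.27 to 7.89 (median 7.28) in SBM and 4.83 to 6.70 (median 5.45) in CU. FM had 3.79 to 5.52 (median 4.79). The chemokine CCL20, which draws lymphocytes and dendritic cells to mucosa, separated the diets fully with 5.51 to 6.69 (median 5.80) in SBM and 3.49 to 5.38 (median 4.27) in CU, where the value of 1 fish was filled in. Its probes fell 3.22-fold (adjusted p = 0.000494) and 2.59-fold (adjusted p = 0.000494). EPD1 (ependymin-1), a secreted glycoprotein known from fish brain, fell 3.4-fold (adjusted p = 0.00851) but kept a level 3.85-fold above FM (adjusted p = 0.0022). It was the largest of the soybean rises in a named gene that were reduced without reaching FM, from a log2 fold change of 3.71 in SBM to 1.94 in CU. With normexp correction the falls were smaller on the log2 scale, 1.42 for ARGI2, 1.25 for ENTK, 0.59 for FOXA1, 0.69 for CDN1A and 0.89 for EPD1, all called. The first CCL20 probe then fell by 0.38, under the limit of the call.

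The lysosomal enzymes held the most calls of the 20 gene lists. Of 45 probes 20 were higher in CU and 1 lower, where 34 had been below FM in SBM and 11 were below FM in CU. Among probes with a symbol 7.56% were called higher in CU and 14.6% lower. The median log2 fold change over the list was 0.44, against -0.18 for all probes with a symbol. The mannosidase MA2B1 rose by 1.27 (SE 0.32, adjusted p = 0.00768), with 13.11 to 15.29 (median 13.85) in SBM, 14.37 to 16.27 (median 15.59) in CU and 15.55 to 16.68 (median 16.39) in FM. CU fish 1, 2, 4 and 8, which had the highest histology sums of the diet, stood at 14.37 to 14.50 for MA2B1 inside the SBM range, and the other 6 above it. Another MA2B1 probe rose by 1.22, a call lost when any of 11 fish was left out. That call was also lost with slide as a block (adjusted p = 0.0773) and the fish number as a replicate block (adjusted p = 0.0922). Beta-galactosidase BGAL rose by 1.06 to 1.09 on 3 probes, and on 2 of these CU stayed below FM. The carboxypeptidase PPGB, which protects that enzyme, rose on 3 probes by 0.94 to 1.01, and dipeptidyl peptidase CATC on both its probes by 0.78 and 0.73 (adjusted p = 0.00141 and 0.0492). The probes near the threshold were not stable, since the PPGB probe at 0.94 lost its call when SBM fish 1, 2, 3, 4 or 7 or CU fish 3, 5, 7, 9 or 10 was left out, with slide as a block (adjusted p = 0.0726) and with the fish number as a replicate block (adjusted p = 0.0975). The CATC probe at 0.73 lost it when SBM fish 1, 2, 3, 4 or 7 or CU fish 1, 3, 7, 8, 9 or 10 was left out and under the same blocks (adjusted p = 0.0828 and 0.108). The PPGB probe at 1.01 lost it without SBM fish 1 or 4 (adjusted p = 0.0644 and 0.0641). CATH, a further protease of the lysosome, rose by 0.94. NAGAB rose by 0.85 on 1 of 4 probes, and the others had 0.18 to 0.34. The fall was in 1 of 4 probes of prosaposin SAP, by 0.76, and the other 3 had log2 fold changes of 0.34 to 0.44 that were not called. The list mean per fish, relative to FM, was -1.20 to -0.54 in SBM and -0.90 to 0.13 in CU, so that 8 of 10 CU fish lay outside the SBM range. The count of 20 was 12 without SBM fish 1 or 4, 13 without CU fish 3 or 7 and 27 when each diet was centred on its median probe.

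Brush border transporters and peptidases had 8 of 30 probes higher in CU and 1 lower, where 21 had been below FM in SBM and 3 were below FM in CU. Of all 2329 probes with a symbol 7.56% were called higher in CU, and 608 were below FM in SBM. Apart from the genes given above, the aminopeptidase XPP2 rose on both its probes, by 0.96 and 0.69, and AMPE by 0.81. With normexp correction the larger XPP2 value was 0.49, still called. The carnitine carrier S22A5 and the cation exporter S47A1 were below FM in both diets and were not called between CU and SBM, with log2 fold changes against FM of -1.15 and -1.01 in SBM and -0.60 and -0.64 in CU. The tryptophan and kynurenine list had 6 of 21 probes higher, or 3 without SBM fish 4, and 2 lower. Kynurenine monooxygenase KMO, which turns kynurenine into 3-hydroxykynurenine, separated the diets fully, with 6.80 to 7.84 (median 7.41) in SBM, 8.16 to 9.01 (median 8.59) in CU and 8.07 to 9.39 (median 8.62) in FM. The rise of KMO was 2.39-fold (SE 0.21 on the log2 scale, adjusted p = 0.000102), and all 10 CU fish lay within the FM range. With normexp correction the log2 fold change was 0.79, still called. Another KMO probe had a log2 fold change of 0.53 (adjusted p = 0.136). The aldehyde dehydrogenase AL3A2 fell by 0.95 and 0.90 on 2 of its 3 probes.

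Of 42 probes of detoxifying enzymes 5 were higher in CU and 3 lower, after 28 had been below FM in SBM. The share called is not above the 22.2% of all probes with a symbol. The higher calls were 3 without SBM fish 2 or 4, 8 without SBM fish 5 or CU fish 2 and 10 when each diet was centred on its median probe. The carboxylesterase EST2 rose on both its probes by 1.11 (adjusted p = 0.00641) and 1.01 (adjusted p = 0.018), and the glutathione transferases GSTA4 and GSTP1 by 0.60 and 0.63, the latter on 1 of its 2 probes. The 3 that fell, CP2J6, CP2K1 and CP2J2, are cytochromes P450, and each had been above FM in SBM. CP2K1 fell by 1.05 (adjusted p = 0.0336) and lost its call when SBM fish 2, 3, 4 or 7 or CU fish 3, 4 or 6 was left out and, among other settings, when arrays were scaled to their 75th percentile (adjusted p = 0.0552). CP2J6, which also fell by 1.05, lost its call under that scaling (adjusted p = 0.0549). With normexp correction they had -0.24 and -0.17, neither called. Another cytochrome, CP2CR, stayed low in CU. Peroxisomal and fatty acid oxidation genes had 3 of 25 probes higher, or 1 without SBM fish 4, and 1 lower. This share called is not above the 22.2% of all probes with a symbol either. The oxidase HAOX2 had no overlap between the diets and rose by 1.03 (adjusted p = 0.000563), still 0.73 below FM (adjusted p = 0.0103). Catalase CATA, which removes hydrogen peroxide, rose by 0.81 (adjusted p = 0.017), a call lost without SBM fish 4 (adjusted p = 0.0592) and under the limit with normexp correction, at 0.30. Antimicrobial proteins and lectins had 3 of 9 probes higher and 0 lower. Intelectin ITL1A, a lectin that binds microbial sugars, had 10.07 to 10.75 (median 10.21) in SBM and 11.04 to 11.65 (median 11.28) in CU, with no overlap, and rose 1.9-fold (adjusted p = 0.0163). The lectin LECH rose by 1.1, or 0.70 with normexp correction, and lysozyme g (LYG) by 0.66.

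**Figure D3:**
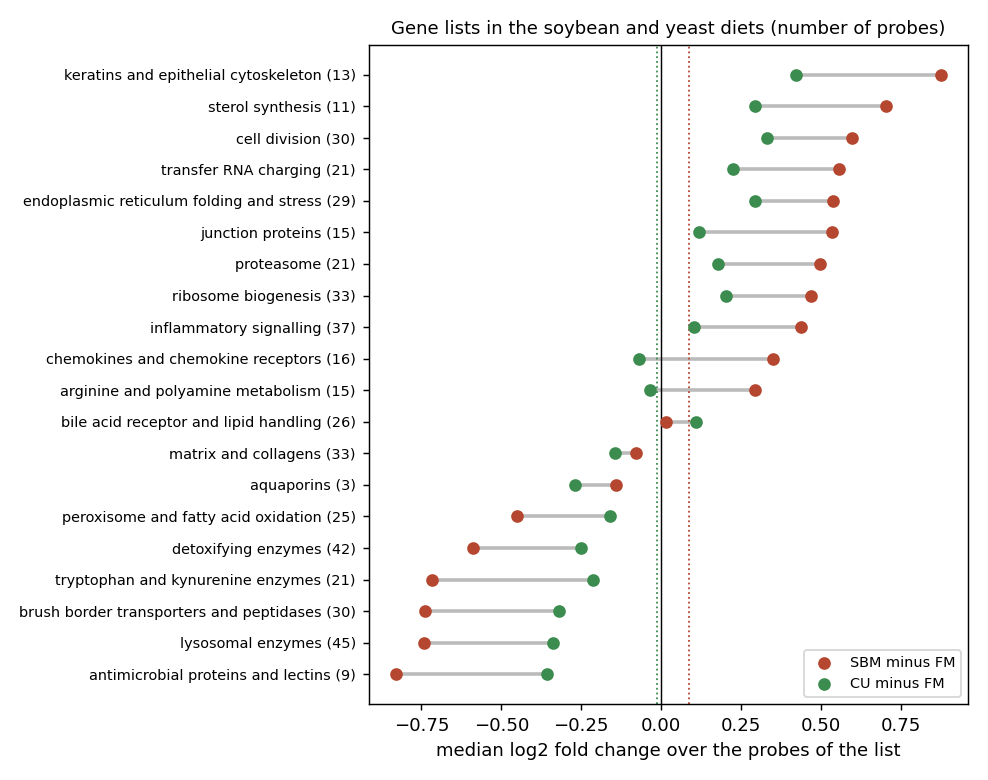
Median log2 fold change against FM over the probes of 20 gene lists (x axis), in SBM and in CU, with the number of probes of each list in brackets. Dotted lines give the medians of all 12065 probes, 0.09 in SBM and -0.01 in CU, and in most lists the CU point lies nearer 0 than the SBM point.

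Calls among inflammatory signalling genes were mostly falls. Of 37 probes 11 were lower in CU and 1 higher, HMOX, where 19 had been above FM in SBM and 3 were above FM in CU. Of all 2329 probes with a symbol 14.6% were called lower in CU, and 1011 were above FM in SBM. Annexin ANXA1, a regulator of inflammation, fell on both its probes, by 1.16 (adjusted p = 0.00833) and 0.92 (adjusted p = 0.000235). The transcription factor CEBPB had 9.89 to 11.04 (median 10.24) in SBM, 9.11 to 10.05 (median 9.69) in CU and 8.70 to 9.81 (median 9.58) in FM. It fell 1.62-fold (adjusted p = 0.000973). The necroptosis kinase RIPK3 fell by 0.79 (adjusted p = 0.0164), a call that ended when dim spots were kept (-0.45, adjusted p = 0.168) and with normexp correction (-0.24, under the limit). The AP-1 members JUNB and JUND, the NF-kappa-B subunit RELB and AL5AP, which serves leukotriene synthesis, also fell, by 0.73, 0.68, 0.55 and 0.81. These falls were not followed through the alternatives. The AP-1 member JUN fell by 0.72 (adjusted p = 0.0337), a call lost when any of 8 fish was left out. It was also lost with each diet centred on its median probe (adjusted p = 0.0820) and with only CU and SBM in the fit (adjusted p = 0.139). The NF-kappa-B inhibitor IKBE was above FM in both diets on 2 of 3 probes and was not called between CU and SBM. The count of 11 was 7 without SBM fish 4 or CU fish 3 or 7, and 7 when each diet was centred on its median probe.

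Chemokines moved in both directions, each opposite to its soybean change. CCL21 and CCL25, which guide lymphocytes and dendritic cells to lymphoid tissue and to the gut in mammals, were lower in SBM and rose in CU. CCL21 rose on 3 probes, by 1.13 (0.66 with normexp correction), 0.98 and 0.83. CCL25 had 11.54 to 11.92 (median 11.69) in SBM, 12.28 to 13.20 (median 12.67) in CU and 12.55 to 13.07 (median 12.87) in FM. The diets did not overlap, and the rise was 1.99-fold (adjusted p = 0.000119). A further CCL25 probe had 0.17 (adjusted p = 0.439). CCL28, a chemokine of mucosal epithelia, fell 2.81-fold (adjusted p = 0.00665) together with CCL20. CCL28 was not called when dim spots were kept (adjusted p = 0.053), and with normexp correction it had -0.43 on the log2 scale. Another CCL20 probe was lower in SBM than in FM, with a log2 fold change of -0.62, and had 0.20 between CU and SBM, so the CCL20 probes disagree. Over the list 4 of 16 probes were higher in CU and 3 lower, and none was called between CU and FM. Of all 2329 probes with a symbol only 299 were called between CU and FM. The absence of such calls is therefore not read as a trait of the list.

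Calls among transfer RNA ligases and proteasome subunits were falls of a size close to the limit of the call. Of all 2329 probes with a symbol 14.6% were called lower in CU, and 1011 were above FM in SBM. Of 21 transfer RNA ligase probes 8 were lower in CU and 0 higher, where 16 had been above FM in SBM and 0 were called in CU against FM. Of all 2329 probes with a symbol only 299 were called between CU and FM, 128 of them above. A count of 0 here or in ribosome biogenesis below is therefore not read as a trait of the list. SYWC, the ligase for tryptophan, fell by 0.55 (SE 0.13, adjusted p = 0.00543), and the others fell by 0.41 to 0.57. Proteasome subunits had 7 of 21 probes lower and 0 higher, by 0.41 to 0.63, where 17 had been above FM. These counts depend on the scaling, since 1 and 0 probes of the 2 lists were called lower when each diet was centred on its median probe. Without 1 fish they were 2 to 9 for the ligases, lowest without SBM fish 4, and 3 to 9 for the proteasome, lowest without SBM fish 4 or CU fish 9. Other lists with many soybean rises had few calls between CU and SBM. In the next 3 the share of falls was not above the 14.6% of all probes with a symbol. Ribosome biogenesis had 22 of 33 probes above FM in SBM and 1 lower in CU, with 0 above FM in CU. Cell division had 22 of 30 above FM in SBM, 3 lower in CU and 4 still above FM. Endoplasmic reticulum folding and stress had 18 of 29 above FM in SBM, 3 lower in CU and 6 still above FM, among them the stress factor MANF, the chaperone DJB11 and 1 of 2 probes of the chaperone CALR, a call that ended with normexp correction (0.27). Most probes of these 3 lists were called for CU against neither diet, so these data do not decide them. Their medians over FM were 0.47, 0.60 and 0.54 in SBM and 0.20, 0.33 and 0.29 in CU.

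Smaller lists gave single genes. Sterol synthesis had 9 of 11 probes above FM in SBM, and DHC24, which makes the last steps to cholesterol, fell by 0.95 (adjusted p = 0.00641). The DHC24 spots were too dim or uneven in 5 of 10 FM fish, and DHC24 had -0.10 with no call after normexp correction (adjusted p = 0.0924). FPPS, which makes farnesyl diphosphate, fell by 0.54. Of 13 keratin and cytoskeleton probes 3 fell and 1 rose. K2C8 and K1C18, the keratins of simple epithelia, fell by 0.53 (adjusted p = 0.00439) and, on 2 of 3 probes, by 0.58 (adjusted p = 0.00565) and 0.60 (adjusted p = 0.0362), and 4 probes of the list were above FM in CU. The last K1C18 call was lost when SBM fish 1, 2, 3, 6 or 7 or CU fish 3, 6 or 9 was left out (adjusted p of 0.0551 to 0.0973) and when each diet was centred on its median probe (adjusted p = 0.0983). The 3 falls were 5 without SBM fish 5 or CU fish 4, 6 without CU fish 8 and 7 without CU fish 1. In the arginine and polyamine list agmatinase SPEB rose by 0.87 (adjusted p = 0.00417), or 0.49 with normexp correction, while ARGI2 fell, one of 4 falls in the list, of which 1 was left without SBM fish 4. Laminin LAMB1, of the basement membrane, fell by 1.12 on 1 of its 3 probes (adjusted p = 0.00127), but by 0.21 with normexp correction, under the limit, and the other probes had 0.08 and -0.27 with adjusted p of 0.769 and 0.514. The junction list had 1 of 15 probes lower and the 3 aquaporin probes had no call between CU and SBM.

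Marker lists of cell types moved beside these genes, and their part in the results was not tested. Of all probes with a symbol 7.56% were called higher in CU and 14.6% lower. Of 12 enterocyte probes 4 were higher in CU and 0 lower, and the list mean per fish relative to FM was -1.14 to -0.13 in SBM and -0.63 to 0.59 in CU. Of 4 goblet cell probes 2 were higher in CU (FCGBP and AGR3, the latter under the limit at 0.39 with normexp correction), with list means of -1.40 to -0.90 in SBM and -0.89 to 0.14 in CU. Of 13 B and plasma cell probes 4 were lower in CU and 1 higher. The list mean per fish was -0.34 to 0.34 in SBM and -0.48 to 0.18 in CU, with 1 CU fish outside the SBM range. The falls were in immunoglobulin light and heavy chain probes. Among them KV403 had 7.42 to 9.18 (median 8.80) in SBM and 6.59 to 8.40 (median 7.04) in CU (log2 fold change -1.53, adjusted p = 0.00323, or -0.92 with normexp correction). IGLL5 fell by 1.25, a call lost without SBM fish 7 (adjusted p = 0.0596). The heavy chain constant probe IGHM was the one that rose, with CU fish 8 far above the others at 7.81. Its log2 fold change of 0.69 (adjusted p = 0.0462) was 0.46 without that fish (adjusted p = 0.0953), and the call was also lost when any of 10 other fish was left out, with slide as a block (adjusted p = 0.0649), the fish number as a replicate block (adjusted p = 0.0666) or normexp correction. T and NK cell markers had 0 of 12 probes called between CU and SBM, with list means of -0.98 to 0.27 in SBM and -0.73 to 0.26 in CU. Macrophage and granulocyte markers had 1 higher and 1 lower of 14. Smooth muscle and fibroblast markers had 0 calls.

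A set of probes that rose and fell together from fish to fish held 5 of the 12 largest named falls. ENV, annotated as an envelope glycoprotein, had 12.90 to 15.41 (median 15.13) in SBM, 10.83 to 13.69 (median 11.77) in CU and 11.01 to 15.05 (median 13.09) in FM. It fell 5.5-fold (adjusted p = 0.011). After the values were seen, the probes were gathered that followed ENV with a Pearson correlation of at least 0.8 over the 57 arrays once diet means had been taken off. There were 33, ENV included, of which 11 have a symbol. Of the 33, 31 were lower in CU than in SBM, 25 were above FM in SBM and 0 were called between CU and FM. Over all probes tested these shares were 4.77%, 15.9% and 3.91%. The set was gathered on its likeness to ENV, one of the largest falls. Its calls therefore largely repeat those of ENV and are no independent support. LPHN, annotated as latrophilin, had the largest fall of all named genes, 12.4-fold (log2 fold change -3.63, SE 0.80, adjusted p = 0.00251), with 8.71 to 12.55 (median 11.39) in SBM and 5.53 to 9.84 (median 7.33) in CU. The FM fish of LPHN spanned 6.45 to 12.07 (median 8.39). F263, a relative of F264, fell 7.23-fold (adjusted p = 0.000534), with values filled in for 2 CU fish. CTBP2, a corepressor of transcription, fell 5.05-fold and the focal adhesion kinase FAK1 3.53-fold. With normexp correction F263 had -1.13 and FAK1 -0.78 on the log2 scale, both called. The mean over the 33 probes relative to FM was 0.17 to 2.06 in SBM (median 1.48), -0.91 to 0.37 in CU and -1.39 to 1.82 in FM, where fish 6 reached the SBM level. In SC, soybean meal with Saccharomyces cerevisiae, it was -1.56 to 2.78 with a median of 1.40. The medians were -0.34 in CV (soybean meal with Chlorella vulgaris) and 0.20 in KM (soybean meal with Kluyveromyces marxianus).

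**Figure D4:**
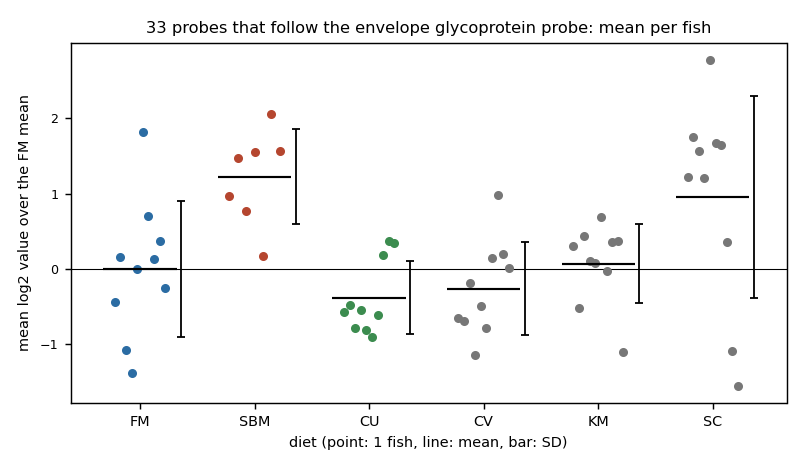
Mean log2 value over the 33 probes that follow the envelope glycoprotein probe, relative to the FM mean (y axis), in each fish of the 6 diets, with the mean (line) and SD (bar). The SBM fish lie between 0.17 and 2.06 and the CU fish between -0.91 and 0.37, while FM and SC spread over both ranges.

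AT5G2, a subunit of mitochondrial ATP synthase, gave the largest named fall after LPHN and behaved differently from a graded response. All values were either at most 6.82 or at least 10.27 on the log2 scale. In these 3 diets, 7 of 7 SBM fish were in the upper cluster, 7 of 10 FM fish and 4 of 10 CU fish. The fitted difference was -3.43 (SE 1.02, adjusted p = 0.0241), and the call was lost without CU fish 7 or 9 or SBM fish 7 (adjusted p of 0.0503 to 0.0515). SBM was not called against FM (adjusted p = 0.0942).

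The soybean changes that remained in CU were read from probes called against FM in both diets and not called between them. A missing call between CU and SBM does not show that the levels were equal, and the intervals below are 95% intervals of that difference on the log2 scale. Among the genes above FM, C1QL2, a complement C1q-like protein, had 6.0 to 7.70 (median 7.03) in FM, 8.75 to 10.55 (median 9.98) in SBM and 5.25 to 10.31 (median 8.60) in CU. Its log2 fold change over FM was 1.59 in CU (SE 0.43, adjusted p = 0.0201) and 2.87 in SBM, with an interval of -2.24 to -0.32 between CU and SBM. The CU call was lost without CU fish 1 (adjusted p = 0.0573) or with only CU and FM in the fit (adjusted p = 0.0815), and its size was 1.03 with normexp correction. CLIC2, an intracellular chloride channel protein, was 2.43-fold above FM in CU (adjusted p = 0.00388) and 2.03-fold in SBM, with an interval of -0.37 to 0.89. Neuroserpin NEUS, a protease inhibitor, was 2.16-fold above FM in CU (adjusted p = 0.00777), with an interval of -0.78 to 0.40. Periplakin PEPL, which links keratin to desmosomes, had a log2 fold change of 0.89 in CU (adjusted p = 0.00192) and 1.49 in SBM, and the difference between CU and SBM had an adjusted p of 0.0534. The growth factors FGF1 and NRG1, which act on epithelial cells, were 1.84-fold and 1.79-fold above FM in CU (adjusted p = 0.00362 and 0.00293). With only CU and FM in the fit the adjusted p of NEUS was 0.0626 and that of NRG1 0.0537, and with normexp correction FGF1 had 0.24, under the limit.

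**Figure D5:**
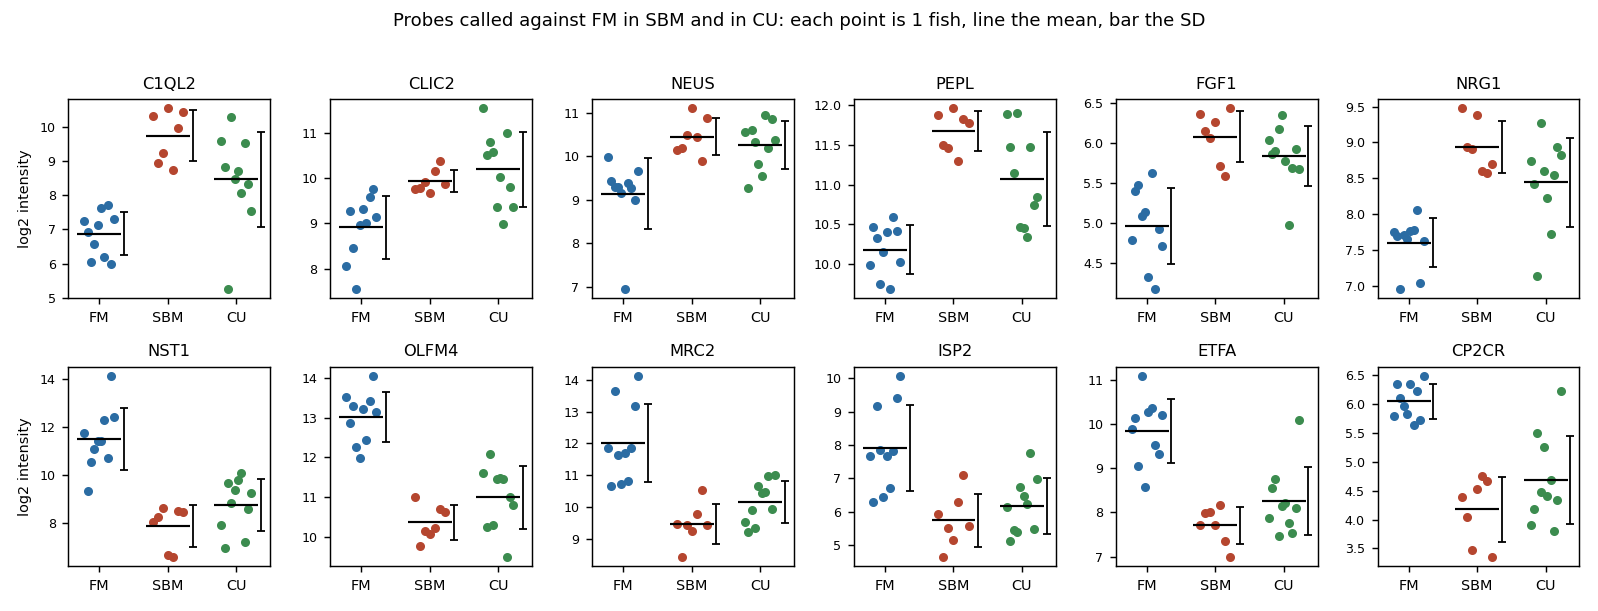
Log2 intensity (y axis) in each fish of FM, SBM and CU for 12 probes called against FM in SBM and in CU, with the mean (line) and SD (bar). The upper row holds genes above FM and the lower row genes below FM, and for OLFM4 the median is 13.18 in FM, 10.22 in SBM and 11.22 in CU.

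Within this set of probes not called between CU and SBM, the largest remaining changes of named genes lay below FM. EPD1, described above, also stayed above FM but was called between CU and SBM, so it is outside the set. OLFM4, a secreted glycoprotein that in mammals marks intestinal crypt stem cells, had 11.996 to 14.06 (median 13.18) in FM, 9.75 to 11.01 (median 10.22) in SBM and 9.49 to 12.08 (median 11.22) in CU. All but 1 of the CU fish lay below the FM range. CU was 4.11-fold below FM (log2 fold change -2.04, SE 0.37, adjusted p = 0.000366), with an interval of -0.19 to 1.45 between CU and SBM. NST1, a probe annotated only by an uncharacterised protein, was 6.67-fold below FM in CU (adjusted p = 2.85e-05) and 12.2-fold in SBM. The mannose receptor MRC2, which takes up collagen fragments, was 3.66-fold below FM in CU (adjusted p = 0.00503). ISP2, annotated as an antifreeze protein related to C-type lectins, was 3.31-fold lower (adjusted p = 0.0193), or with an adjusted p of 0.0573 when only CU and FM were in the fit, and had -0.89 with normexp correction. ETFA, which passes electrons from fatty acid oxidation to the respiratory chain, had 8.57 to 11.08 (median 10.002) in FM, 6.99 to 8.17 (median 7.72) in SBM and 7.47 to 10.10 (median 8.12) in CU. It was 3.01-fold below FM in CU (adjusted p = 0.000461), where CU fish 10, at 10.1, was above the FM median and the other 9 were below it. CP2CR, a cytochrome P450 of family 2, was 2.58-fold below FM in CU (adjusted p = 0.00174), with an interval of -0.12 to 1.13 between CU and SBM, and had -0.29 with normexp correction, under the limit.

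Few probes were called in CU against both other diets apart from the soybean change. Of the 472 probes called between CU and FM, 425 were called in the same direction between SBM and FM. The rest had no such call, and apart from the 3 below they were not followed as a set. Of the 85 probes called between CU and SBM and not between SBM and FM, 82 were not called between CU and FM either, 70 of them lower and 12 higher in CU. The other 3 were called in the same direction against both diets. Geminin GEMI, which keeps DNA from being copied again in a cell cycle, had 8.79 to 10.36 (median 9.47) in FM, 9.26 to 9.84 (median 9.42) in SBM and 9.34 to 10.43 (median 10.11) in CU. It was 1.45-fold above SBM (adjusted p = 0.0283) and 1.45-fold above FM (adjusted p = 0.0225). The call against SBM was lost without CU fish 7 or SBM fish 1, 2 or 3 (adjusted p of 0.0562 to 0.0644), or with FM, SBM and CU alone in the fit (adjusted p = 0.0585). A histone H2A probe was 1.47-fold below SBM (adjusted p = 0.0285), a call lost without CU fish 3 or 9 or SBM fish 2, 6 or 7 (adjusted p of 0.0562 to 0.0718) and under other settings, among them the fish number as a replicate block (adjusted p = 0.0526). The third, Omy_S15239317, has no symbol here and was 1.48-fold below SBM (adjusted p = 0.0047), with all 10 CU fish below the SBM fish. Of all 878 calls 361 have no symbol. The largest rises among those were Ssa_S18862026 and Ssa_S30235658, at 3.14 and 3.13. The largest falls were Ssa_GRASP209153991 at -3.47 and Ssa_S47729315 at -2.74. The last had 5.80 to 6.92 (median 6.24) in FM, 10.45 to 11.58 (median 11.31) in SBM and 6.12 to 10.704 (median 8.14) in CU.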

How the data were processed

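RNA of the distal intestine was hybridised to custom one-colour Agilent arrays, 1 fish per array. The deposited intensity is the scanner software's background-subtracted processed signal (Agilent Feature Extraction 10.7.1.1), not normalized between arrays. The authors also deposited a table of log2 values after quantile normalization and filling of missing values, with 12064 probes. Of its probes 12053 were among those tested, with a median correlation per array of 1.00 (lowest 0.995), and it served as an alternative.

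From the intensities, 536 control spots of 15377 were left out. Dim spots (not well above background, or not significantly positive) and uneven spots were set to missing, and arrays were quantile normalized and put on the log2 scale. A probe was kept where at most 15% of the 57 arrays lacked it, which left out 2776, and 4245 missing values (0.617%) were filled in from the 10 nearest probes. One limma model (3.58.1, R 4.3.3) held the 6 diets and all arrays, with single contrasts and Benjamini-Hochberg adjustment over 12065 probes. The number of fish limits the precision. Normexp correction used median signals and an offset of 50. Columns of the authors' own comparisons were not used.

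Gene symbols came from the part held of the study's lists of changed probes, so no list was tested for enrichment. Genes were named by rule: the 12 largest rises and 12 largest falls between CU and SBM with a symbol, the 6 largest changes against FM in each direction called in both diets and not between them, up to 6 in each direction called for CU against both other diets in the same direction and not between SBM and FM, members of the gene lists, and at most 2 unnamed probes per direction. The members, gene lists and marker lists were chosen with earlier results of these data known. The alternatives were another scaling, background correction, filters on dim spots, imputation, the authors' table, fewer diets in the fit, other limits on the fold change, a nested F-test, slide, scan day or fish number as a term, and leaving out each fish. Some list members are not reported here.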

Additional observations from a re-analysis of the deposited data

Results flagged for a closer look

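Single fish stood far from their diet in 15 of 300 sets of values (100 probes in 3 diets), by the gap to the nearest fish against the whole range. Chance alone gives about 1 set in 20, which is as many. FM held 10 of the 15, SBM 0 and CU 5. In CU, fish 10 had ETFA at 10.1 and CCL28 at 6.57, both above the other fish, and fish 8 had IGHM at 7.81. CU fish 4, with the highest histology sum of its diet, had KV403 at 8.40, above the other CU fish. CU fish 7 had FGF1 at 4.97, below the others.

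In FM, fish 6 was high for F263 at 8.57, DHC24 at 4.88 and FABPI at 16.4, and low for NEUS at 6.95. FM fish 3 was low for HMOX at 9.71 and CALR at 5.005. FM fish 4 was high for BGAL at 12.4 and low for CEBPB at 8.70 and AURAA at 4.64, and FM fish 2 was high for KV403 at 9.07.

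Among the probes too dim to be tested, Ssa_CK879834 was above background in 7 of 7 SBM fish, in 1 of 10 CU fish and in 0 of 10 FM fish. It has no symbol here. Its difference between the diets was not tested.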

How the results depend on the processing

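The count of 878 probes called between CU and SBM was 690 to 1139 under most alternatives. With normexp background correction the counts were 564 between CU and SBM, 1872 between SBM and FM, 290 between CU and FM and 523 called back against the soybean change. With a limit of 1 on the log2 fold change they were 178, 503, 53 and 154. With only the 2 diets of the contrast in the fit, CU against FM gave 144. Leaving out 1 fish gave 600 (SBM fish 4) to 1104 (SBM fish 5) between CU and SBM, 2748 to 3290 between SBM and FM, 244 (CU fish 1) to 634 (CU fish 10) between CU and FM, and 554 to 1005 called back. With the fish number as a replicate block the counts were 927, 3013, 485 and 822. Fish of the same number correlated by -0.05 to 0.35 over 7 pairs, 4 of them over 0.1 and 4 best with their own number. For 7 of 7 numbers held by FM, SBM and CU, the fish of the 3 diets shared a slide and a row on it, so the number also stands for a shared array position. With slide as a block the counts were 874, 3009, 538 and 771.

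The share of calls above SBM, 34.4%, was 44.7% in the authors' table and 54.5% with dim spots removed after normalization. For SBM against FM 64.0% of calls were above, and 44.1% with the 75th percentile scaling. For CU against FM it was 41.9%, and 27.2% with that scaling. Of 105 gene results followed, 105 kept their direction and 37 kept their call under every alternative. In 26 the call changed without 1 fish. The cause of these shifts was not tested. Signal over background limits the dim genes, and 12 of 115 probes in the text have a value filled in for a dim or uneven spot.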
